A study of Mus musculus with 24 samples.

Results

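Vitamin A reaches tissues as retinol, carried in blood by retinol-binding protein 4 (Rbp4). Cells take it up through the membrane receptor Stra6 and oxidise it to retinal, and retinal dehydrogenases of the Aldh1a family then turn retinal into retinoic acid. Retinoic acid is bound in the cytosol by Crabp1, activates nuclear receptors such as Rarb, and is broken down by hydroxylases of the Cyp26 family. In the gut wall, stromal cells are among the cells that can make retinoic acid, which is known for its effects on immune cells and on the patterning of the mesenchyme.

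Described here are 8 genes of this pathway, namely Rbp4, Stra6, Crabp1, Aldh1a1, Aldh1a2, Aldh1a3, Cyp26b1 and Rarb, out of 30827 named genes on the arrays. They were taken by symbol, each had 1 probe set, and no filter on low values was applied. Rbp4 was picked because its values were lower with loss of Ihh. Its values in the comparisons with Ihh loss are therefore a description with no test, and the other 7 genes were chosen as its pathway partners with earlier results of these data known.

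RNA came from sorted mouse colon fibroblasts that were negative for Epcam, CD45 and CD31 and positive for gp38, the surface protein podoplanin, and was measured on 24 arrays. The WT group, Villincre-ERT2-ZsGreen-IhhWT-ApcWT, had 7 arrays, the ApcKO group, Villincre-ERT2-ZsGreen-IhhWT-ApcKO, had 8, and the IhhKO_ApcKO group, Villincre-ERT2-ZsGreen-IhhKO-ApcKO, had 9. All groups carry an inducible Cre driven by Villin, a gene of the gut epithelium, and the fibroblasts measured are not the cells in which this Cre acts. Apc restrains Wnt signalling, Indian hedgehog (Ihh) is a ligand that the epithelium sends to the stroma, and Ihh loss occurs here only together with Apc loss. The labels give no age or sex and do not say that each array is a separate mouse, so p-values measure the spread between these samples.

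Values are RMA log2 values, in which 1 unit is a doubling, and a value of one gene is not set against that of another because probes differ in brightness. The number of arrays limits the precision. Of the 9 fibroblast markers measured, 8 lay above the 95th percentile of the negative controls on all 24 arrays, among them Pdpn, which encodes podoplanin, and Thy1 did so on 0. Ptprc, which encodes CD45, lay below the negative control median on all arrays. The leukocyte markers Cd3e, Cd79a, Itgax, Tyrobp and Fcer1g lay above that median on all 24 and under the 95th percentile on each. Lyz2 lay above the median on 22 and Itgam on 6. Pecam1 (CD31) lay between the median and the 95th percentile on all 24. Among endothelial markers only Tek exceeded the 95th percentile, on 17 of 24 arrays. Tek averaged 8.64, 8.53 and 8.15 in WT, ApcKO and IhhKO_ApcKO. Epithelial markers averaged 7.02, 7.66 and 7.27 in WT, ApcKO and IhhKO_ApcKO but ranged over arrays from 5.47 to 8.65. Epcam lay above the negative control median on 23 arrays and above the 95th percentile on 0. Car1 exceeded that percentile on 19 arrays, Krt8 and Muc2 on 15 each and Krt19 on 13. Lgals4 did so on 6, Krt18 on 5, Cdh1 on 3 and Cldn7 on 1, and Krt20, Vil1 and Slc26a3 on 0. Epithelial RNA was thus present in these samples. The array coded B9, labelled IhhKO_ApcKO, stood apart. Its value of Gli1, a transcription factor induced by Hedgehog signalling, was 7.99, where the other 8 arrays of the group lay between 6.64 and 7.05 and WT arrays between 7.98 and 8.20. Results that rest on this array are given with and without it.

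Rbp4, the retinol carrier, was lower in fibroblasts from IhhKO_ApcKO mice than in either group with intact Ihh. In WT its lowest, median and highest values were 9.22, 9.54 and 9.90. The ApcKO arrays ran from 9.49 through a median of 9.71 to 10.03, and the IhhKO_ApcKO arrays from 8.51 through 9.0 to 9.80. On 8 of the 9 double-knockout arrays Rbp4 was below its lowest value in ApcKO and below its lowest value in WT. Against WT the margin was thin, since C3 and the WT array A2 both read 9.22 at the precision printed. The exception was B9, which had the value of 9.80 and lay inside the range of both Ihh-intact groups.

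**Figure D1:**
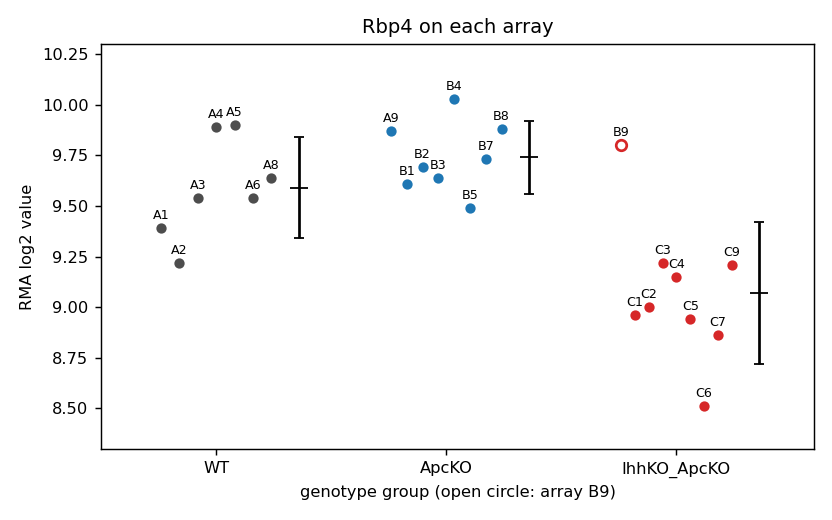
RMA log2 values of Rbp4 on each of the 24 arrays, by genotype group, with the array codes; black marks give the group mean and SD, and the open circle is array B9. The arrays C1 to C9 lie between 8.51 and 9.22, while B9 lies at 9.80 among the Ihh-intact arrays.

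Rbp4 averaged 9.59 ± 0.25 (SD, n = 7) in the WT arrays. Its mean was 9.74 ± 0.18 (SD, n = 8) with Apc loss and 9.07 ± 0.35 (SD, n = 9) with loss of both genes. The log2 difference of IhhKO_ApcKO from ApcKO was -0.67, or 1.59-fold lower, and from WT -0.52, or 1.43-fold lower. These 2 comparisons share the double-knockout arrays and are not independent of each other. Without B9 these differences were -0.76 and -0.61, or 1.70-fold and 1.52-fold lower. For ApcKO minus WT, which was not used to pick the gene, Rbp4 did not pass the limma test (log2 difference 0.15, 95% interval -0.12 to 0.43, adjusted p = 0.97), and 7 of 8 ApcKO arrays lay above the WT mean.

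The letter of the array code runs almost along with genotype, and the labels do not say what it stands for. With the letter as a block the Rbp4 difference turned from -0.67 to 0.07 for IhhKO_ApcKO minus ApcKO and from -0.52 to 0.35 for IhhKO_ApcKO minus WT. The first of these compares B9, the 1 double-knockout array with the letter B, with the ApcKO arrays of that letter. The second adds to it A9, the 1 ApcKO array with the letter A. Letter and genotype cannot be told apart on the other arrays.

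Rbp4 is also made by adipocytes, and less Rbp4 RNA per cell cannot be told apart from fewer cells that express it in these bulk samples. The 7 adipocyte markers measured averaged 5.25 in WT, 5.25 in ApcKO and 5.26 in IhhKO_ApcKO. Adipoq, which encodes the adipocyte hormone adiponectin, lay below the negative control median on all 24 arrays, and Lep did so on 22. Plin1, Cidec, Fabp4 and Pparg lay above that median on all 24 and Retn on 21, and 0 of the 7 exceeded the 95th percentile of the negative controls on any array. Pparg, which fibroblasts can also express, averaged 7.25, 7.48 and 7.52 in WT, ApcKO and IhhKO_ApcKO, and Fabp4 averaged 5.58, 5.62 and 5.81. The part of adipocytes in the Rbp4 values was not tested. General fibroblast markers averaged 10.57 ± 0.08 (SD, n = 7), 10.53 ± 0.10 (SD, n = 8) and 10.48 ± 0.15 (SD, n = 9) in the same order. Within groups, the Pearson correlation of Rbp4 with the means of the 10 marker lists over 24 arrays lay between -0.13 for enteric glia and neurons and 0.36 for mesothelium. Without B9 it lay between -0.24 for general fibroblast and 0.28 for adipocyte markers. With the adipocyte markers it was 0.35 over 24 arrays. B9 had the highest mesothelial mean of its group, at 6.17, while C9 had 6.11 with Rbp4 at 9.21. B9 was also highest of its group for pericyte and smooth muscle (7.15), interstitial cell of Cajal (6.49) and lymphatic endothelial (4.82) markers. The part of these cells in its Rbp4 value was not tested.

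Rbp4 was set beside Gli1 because both were lower on the arrays coded C. After subtraction of the group means, the correlation of Rbp4 with Gli1 over 24 arrays was 0.62, but without B9 it was 0.19. The correlation with Ptch1, the Hedgehog receptor, went from 0.57 to 0.24 and that with Hhip, a Hedgehog-binding protein, from 0.42 to 0.14. The within-group values of Rbp4 and these genes were thus less alike once B9 was left out.

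**Figure D2:**
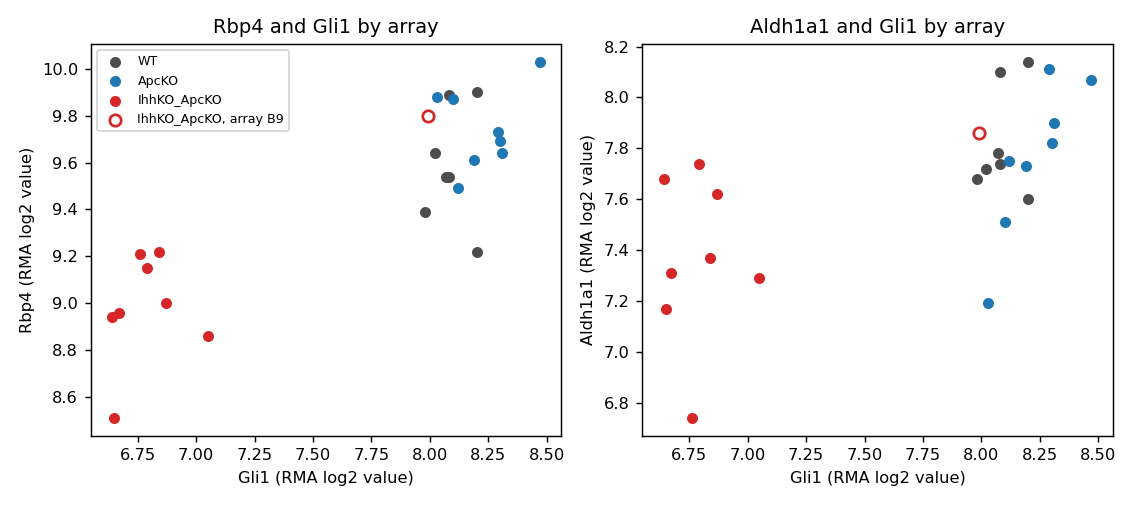
RMA log2 values of Rbp4 (left) and Aldh1a1 (right) on the vertical axis against Gli1 on the horizontal axis, 1 point per array, coloured by genotype, with array B9 as an open circle. In both panels B9 lies with the Ihh-intact arrays, at a Gli1 value of 7.99.

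The upstream bases of Rbp4 are shown because the gene was picked on a comparison that removes a Hedgehog ligand. RefSeq windows from 250 bases before to 50 after a transcription start, in build GRCm38.p6, were at hand for 7 of the 8 genes, 12 windows in all. Rbp4 has 2, of which the one below is at chr19:38124812-38125061 on the minus strand and ends at the base before the start. The capitals mark GACCACCC, the first 8 letters of GACCACCCA, the consensus bound by Gli factors, at positions -221 to -214, and a TATAAA box at -28 to -23.
Rbp4: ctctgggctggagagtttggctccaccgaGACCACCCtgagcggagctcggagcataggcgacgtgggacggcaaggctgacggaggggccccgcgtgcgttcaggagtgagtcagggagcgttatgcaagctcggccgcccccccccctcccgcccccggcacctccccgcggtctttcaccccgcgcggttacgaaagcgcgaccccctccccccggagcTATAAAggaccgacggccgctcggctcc

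Both strands of the whole 300-base windows were searched. The letters GACCACCC occur in 0.807% of the 32851 mouse windows and in 1 of the 12 windows of these genes, that of Rbp4. The full consensus GACCACCCA, which contains them, occurs in 0.253% of all windows and in 0 of the 12. TATAAA occurs in 13.6% of all windows and in 2 of the 12, the Rbp4 window shown above and the window of Cyp26b1. A match of letters is not a bound site.

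Stra6, the receptor that takes up retinol from Rbp4, was dim and showed no difference that passed. Its values spanned 5.56 to 6.03 in WT, 5.49 to 5.85 in ApcKO and 5.61 to 5.80 in IhhKO_ApcKO, with medians of 5.78, 5.70 and 5.68. The groups overlapped, and on 12 of 24 arrays Stra6 lay below the brightest antigenomic background probe set. The log2 difference was -0.10 (95% interval -0.22 to 0.03, adjusted p = 0.97) for ApcKO minus WT. It was -0.01 (-0.13 to 0.11, adjusted p = 1.0) for IhhKO_ApcKO minus ApcKO and -0.11 (-0.23 to 0.01, adjusted p = 0.71) for IhhKO_ApcKO minus WT. The intervals bound the change of the measured signal only, on a probe set near background.

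Crabp1, which binds retinoic acid in the cytosol, had the widest spread within groups of the 8 genes, with a pooled SD of 0.42. The lowest, median and highest values were 6.57, 6.88 and 8.15 in WT, 6.46, 7.04 and 7.61 in ApcKO, and 6.34, 6.85 and 7.34 in IhhKO_ApcKO. A single WT array, A2, held the value of 8.15, and the groups otherwise lay over each other. The difference for IhhKO_ApcKO minus WT was -0.21 (95% interval -0.61 to 0.19, adjusted p = 0.85) with A2 and -0.04 without it. The other 2 comparisons gave -0.14 (-0.55 to 0.28, adjusted p = 0.97) for ApcKO minus WT and -0.07 (-0.46 to 0.32, adjusted p = 1.0) for IhhKO_ApcKO minus ApcKO. Without A2 the first of these was 0.04.

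Among the 3 retinal dehydrogenases, which make retinoic acid, Aldh1a1 had the lowest double-knockout values relative to the other groups, but 0 of the 3 passed in any comparison. Aldh1a1 ran from 7.60 through a median of 7.74 to 8.14 in WT, from 7.19 through 7.79 to 8.11 in ApcKO, and from 6.74 through 7.37 to 7.86 in IhhKO_ApcKO. The groups overlapped, and 5 of the 9 double-knockout arrays lay below every WT array. As for Rbp4, the highest double-knockout value was that of B9.

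Aldh1a1 averaged 7.82 ± 0.21 (SD, n = 7) in the WT arrays. Its mean was 7.76 ± 0.30 (SD, n = 8) with Apc loss and 7.42 ± 0.35 (SD, n = 9) with loss of both. The difference was -0.40 (95% interval -0.69 to -0.11, limma adjusted p = 0.41) for IhhKO_ApcKO minus WT and -0.34 (-0.62 to -0.06, adjusted p = 0.83) for IhhKO_ApcKO minus ApcKO. In each, 8 of 9 double-knockout arrays lay below the mean of the other group. Without B9 the differences were -0.46 (adjusted p = 0.24) and -0.40 (adjusted p = 0.50). For ApcKO minus WT it was -0.06 (-0.36 to 0.23, adjusted p = 0.99), so the order of the means was WT, ApcKO, IhhKO_ApcKO with no neighbours that differed by the test.

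From array to array, Aldh1a1 varied together with markers of several cell types. Within groups its correlation over 24 arrays was 0.65 with the mean of the fibroblast markers, 0.64 with that of pericyte and smooth muscle markers, -0.41 with epithelial and -0.55 with adipocyte markers. Without B9 these were 0.63, 0.60, -0.51 and -0.68. For mesothelial, leukocyte, interstitial cell of Cajal and blood endothelial markers the correlation was -0.32, -0.26, -0.31 and -0.43 over 24 arrays. Without B9 it was -0.56, -0.46, -0.48 and -0.48. With the Hedgehog genes it was 0.70 for Ptch1, 0.58 for Hhip and 0.48 for Gli1 over 24 arrays, and without B9 it was 0.69, 0.49 and 0.42. The array with the lowest value, C9 at 6.74, had the highest epithelial mean of its group, 8.65, and a fibroblast mean of 10.27. B8, the lowest ApcKO array at 7.19, likewise had the highest epithelial mean of its group, 8.60. Other arrays went the other way. A2, the lowest WT array at 7.60, had an epithelial mean of 6.26. A6, with the highest epithelial mean in WT, 8.35, had Aldh1a1 at 7.78. B7, the highest ApcKO array at 8.11, had an epithelial mean of 8.25. Pericyte and smooth muscle markers averaged 7.09, 7.15 and 6.94 in WT, ApcKO and IhhKO_ApcKO. The part of these cell types in the Aldh1a1 differences was not tested.

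Aldh1a2, the dehydrogenase of the early embryo and of mesothelium and some dendritic cells, lay between 7.47 and 7.97 in WT, with a median of 7.67. Its values ran from 7.15 through 7.61 to 7.87 in ApcKO and from 6.98 through 7.46 to 7.81 in IhhKO_ApcKO. The ranges overlapped, although 5 of 9 double-knockout arrays lay below every WT array. ApcKO minus WT gave -0.13 (95% interval -0.37 to 0.10, adjusted p = 0.97). IhhKO_ApcKO minus ApcKO gave -0.13 (-0.35 to 0.10, adjusted p = 1.0), and IhhKO_ApcKO minus WT gave -0.26 (-0.49 to -0.03, adjusted p = 0.58). The last was -0.31 without B9, and it did not pass (adjusted p = 0.40). Mesothelial markers averaged 5.74, 5.60 and 5.68 in WT, ApcKO and IhhKO_ApcKO, and their within-group correlation with Aldh1a2 was -0.07 over 24 arrays and -0.28 without B9. Of the 28 pairs among the 8 genes, Aldh1a1 and Aldh1a2 had the highest within-group correlation, 0.54 over 24 arrays and 0.47 without B9.

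Aldh1a3, the other dehydrogenase of the family, did not share the low double-knockout values. It ran from 7.62 through 7.94 to 8.18 in WT, from 7.37 through 7.70 to 7.94 in ApcKO, and from 7.53 through 7.84 to 8.53 in IhhKO_ApcKO. ApcKO had the lowest mean, 7.71 ± 0.18 (SD, n = 8), against 7.95 ± 0.21 (SD, n = 7) in WT, and all 8 ApcKO arrays lay below the WT mean. This difference of -0.25 (95% interval -0.48 to -0.01) did not pass (limma adjusted p = 0.97). From ApcKO to IhhKO_ApcKO the difference was 0.16 (-0.07 to 0.38, adjusted p = 1.0), and 0.07 without C3, the array with the value of 8.53. For IhhKO_ApcKO minus WT it was -0.09 (-0.32 to 0.14, adjusted p = 0.89). Whether Aldh1a1 and Aldh1a3 differ in their response was not tested.

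**Figure D3:**
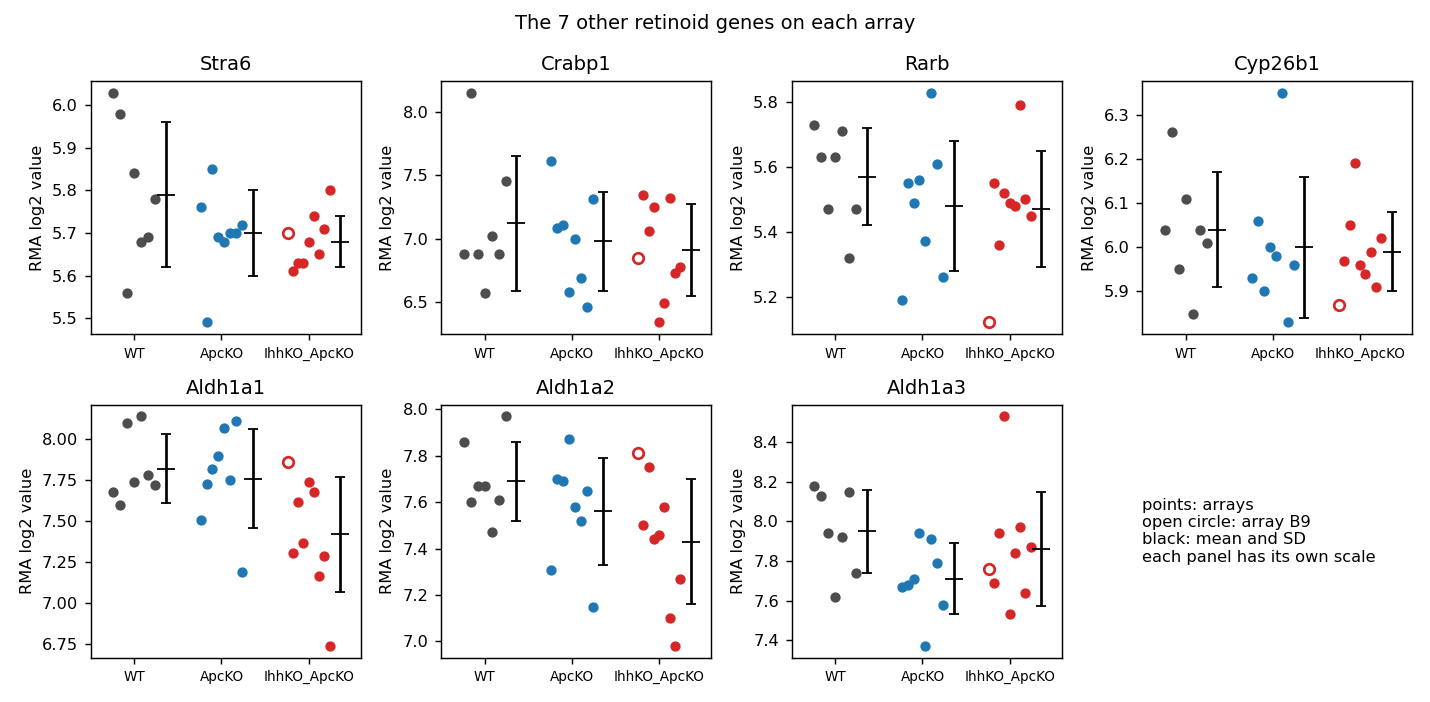
RMA log2 values of the 7 other genes on each array by genotype group, 1 panel per gene with its own vertical scale; black marks give mean and SD, and the open circle is array B9. In each panel the 3 groups overlap, and Aldh1a1 reaches down to 6.74 in IhhKO_ApcKO.

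Cyp26b1, which hydroxylates retinoic acid and so ends its action, varied little. Its lowest, median and highest values were 5.85, 6.04 and 6.26 in WT, 5.83, 5.97 and 6.35 in ApcKO, and 5.87, 5.97 and 6.19 in IhhKO_ApcKO, and the groups overlapped throughout. ApcKO minus WT gave -0.03 (95% interval -0.17 to 0.10, adjusted p = 0.98). IhhKO_ApcKO differed by -0.01 from ApcKO (-0.14 to 0.12, adjusted p = 1.0) and by -0.05 from WT (-0.18 to 0.09, adjusted p = 0.91). Cyp26b1 lay under the 95th percentile of the negative controls on all 24 arrays, so the intervals bound the change of a dim signal. Of the other genes, only Rbp4 exceeded that percentile on all 24. Aldh1a1 and Aldh1a3 did so on 2 arrays each, Crabp1 on 1, and Aldh1a2, Stra6 and Rarb on 0.

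Rarb, a retinoic acid receptor whose gene is itself a classical target of retinoic acid, is a readout of the pathway among the 8 genes. Its upstream bases are shown for the element through which retinoic acid acts on it. The window is at chr14:16575477-16575726, minus strand, GRCm38.p6, and ends at the base before the start. The capitals mark a direct repeat of the receptor half-site with 5 bases between (DR5), at positions -53 to -37.
Rarb: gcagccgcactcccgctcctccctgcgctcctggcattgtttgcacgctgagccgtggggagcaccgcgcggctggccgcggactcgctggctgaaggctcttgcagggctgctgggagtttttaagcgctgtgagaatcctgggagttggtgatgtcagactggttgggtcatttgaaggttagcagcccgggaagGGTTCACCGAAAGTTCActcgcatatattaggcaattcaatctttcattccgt

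A DR5 occurs in 0.0974% of the 32851 windows and in 1 of the 12 windows of these genes. The repeats DR1 and DR2, with 1 and 2 bases between the half-sites, occur in 0.222% and 0.268% of all windows and in 0 of the 12. The RNA of Rarb stayed low in all groups. It lay between 5.32 and 5.73 in WT, 5.19 and 5.83 in ApcKO, and 5.12 and 5.79 in IhhKO_ApcKO, with medians of 5.63, 5.52 and 5.49. On 20 of 24 arrays it lay below the brightest antigenomic probe set. On B9, where Rbp4 was high, Rarb had its lowest value of all arrays.

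For Rarb, ApcKO minus WT gave -0.08 (95% interval -0.27 to 0.10, adjusted p = 0.97). IhhKO_ApcKO differed by -0.01 from ApcKO (-0.18 to 0.16, adjusted p = 1.0) and by -0.09 from WT (-0.27 to 0.09, adjusted p = 0.85). With the code letter as a block these differences from ApcKO and WT became -0.40 (adjusted p = 0.47) and -0.78 (adjusted p = 0.15), in a fit that rests on B9 and A9. A level this near background limits what the probe set can show of a loss of signal. Rarb and Rbp4 had the lowest within-group correlation of the 28 pairs, -0.61 over 24 arrays and -0.46 without B9.

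**Figure D4:**
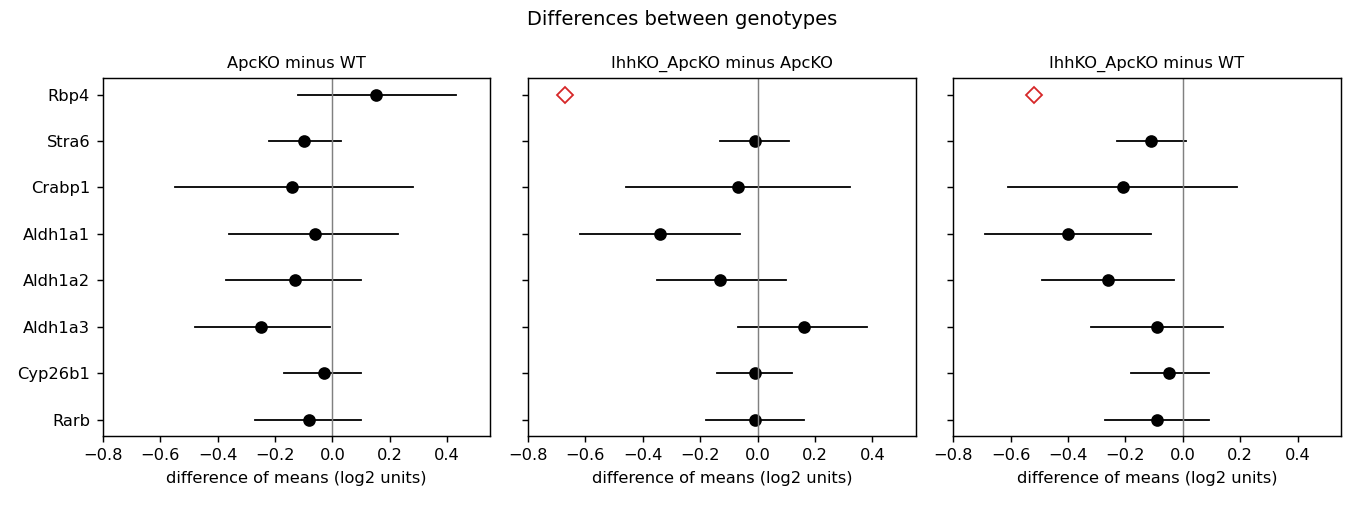
Differences of group means in log2 units for the 8 genes in the 3 comparisons; circles are tested differences with their 95% intervals from limma, and the open diamonds are Rbp4 in the comparisons it was picked on, given with no interval. The intervals leave out 0 for Aldh1a1 in both comparisons with Ihh loss, for Aldh1a2 in IhhKO_ApcKO minus WT and for Aldh1a3 in ApcKO minus WT, and none of these passed after adjustment over all genes.

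Counted together, 0 of the 8 genes passed for ApcKO minus WT, where 0% of all genes did, and 1, Aldh1a3, had an unadjusted p under 0.05, against 4.41% of all genes. For IhhKO_ApcKO minus ApcKO, where 0.0454% of all genes passed, 0 of the 7 genes other than Rbp4 did. Of these 7, 1, Aldh1a1, had an unadjusted p under 0.05, against 4.94% of all genes. For IhhKO_ApcKO minus WT, where 0.0811% passed, 0 of the 7 did, and 2, Aldh1a1 and Aldh1a2, had an unadjusted p under 0.05, against 7.62%. Of all genes, 0.0422% passed as lower and 0.00324% as higher in the second comparison, and 0.0714% and 0.00973% in the third. The groups overlapped for all 8 genes in each comparison, and of all genes 0.00649%, 0.0227% and 0.0714% had groups that did not overlap. The difference was negative for 7, 6 and 7 of the 7 genes other than Rbp4, against 60.6%, 43.4% and 55.1% of all genes. The median differences of these 7 genes were -0.096, -0.014 and -0.109 in the same order, against -0.021, 0.011 and -0.011 over all genes. The 3 comparisons share arrays.

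Other genes of the pathway were taken from a list of 80 by role, of which 71 were measured, and 0 of them passed in any of the 3 comparisons, with 3, 5 and 9 at an unadjusted p under 0.05. These are 4.23%, 7.04% and 12.68% of the list, against 4.41%, 4.94% and 7.62% of all genes. Their median difference was -0.025 for ApcKO minus WT, and for IhhKO_ApcKO it was 0.021 against ApcKO and -0.003 against WT, beside the medians of all genes given above. The genes named here had the smallest p of their role in a comparison.

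Of the 11 transport and uptake genes, Lpl, the lipoprotein lipase that frees lipids and retinyl esters from lipoproteins, was at 7.42 in WT, 7.37 in ApcKO and 7.08 in IhhKO_ApcKO. Its differences were -0.33 (SE 0.095, adjusted p = 0.24, lower in 9 of 9 arrays) for IhhKO_ApcKO minus WT and -0.28 (SE 0.092, adjusted p = 0.54) for IhhKO_ApcKO minus ApcKO. Lrp2, the endocytic receptor megalin, was dim, at 4.51 in WT and 4.35 in ApcKO. Among 9 enzymes of retinyl esters and carotenoids, the carboxylesterase Ces1d was at 9.25 in ApcKO and 9.52 in IhhKO_ApcKO (log2 difference 0.28, SE 0.117, adjusted p = 0.90). Rpe65, the isomerase of the eye, lay near background with 3.12 in WT and 3.02 in ApcKO.

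The 20 dehydrogenases and reductases that act on retinol and retinal ranged in their IhhKO_ApcKO minus ApcKO differences from -0.07 to 0.20. The highest was Dhrs3, which reduces retinal back to retinol, at 9.01 in ApcKO and 9.21 in IhhKO_ApcKO (SE 0.145, adjusted p = 1.0). Dhrs7 was at 9.21 in WT, 9.06 in ApcKO and 9.01 in IhhKO_ApcKO, and its largest difference was -0.20 (SE 0.079, adjusted p = 0.54). Of the other hydroxylases, Cyp26c1 was at 5.63, 5.59 and 5.51 and Cyp26a1 at 4.78, 4.72 and 4.70 in WT, ApcKO and IhhKO_ApcKO.

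Among 9 receptors and cofactors, Rara, a retinoic acid receptor, was at 7.06, 6.97 and 7.08 in the same order, and Rxrb, a heterodimer partner of such receptors, at 6.81, 6.77 and 6.87. Their differences for IhhKO_ApcKO minus ApcKO were both 0.10, and neither passed (adjusted p = 1.0 for each). The 18 genes known to respond to retinoic acid had a median difference of 0.004 in that comparison, 9 of them positive and 9 negative, where 43.4% of all genes were negative. For IhhKO_ApcKO minus WT their median was -0.009, with 8 positive and 10 negative, and 4 of the 18 had an unadjusted p under 0.05, which is 22.22% against 7.62% of all genes. These 4, all lower in IhhKO_ApcKO, were Rarres1, Rarres2, Tgm2 and Nr2f1. Tgm2 was at -0.22 (SE 0.087, limma adjusted p = 0.52) and Nr2f1 at -0.18 (SE 0.059, limma adjusted p = 0.35). The lowest difference there was that of Rarres1, a retinoic acid responsive gene named after its values were seen, at -0.35 (SE 0.116, adjusted p = 0.36). Rarres1 was dim, at 5.55, 5.29 and 5.20 in WT, ApcKO and IhhKO_ApcKO. Its differences were -0.26 for ApcKO minus WT and -0.09 for IhhKO_ApcKO minus ApcKO. Rarres2, which encodes the chemokine chemerin, was at 11.02, 10.92 and 10.84 (IhhKO_ApcKO minus WT -0.18, SE 0.059, adjusted p = 0.35). Tgm2, a transglutaminase, had the smallest p of this role for IhhKO_ApcKO minus ApcKO at -0.15 (SE 0.084, adjusted p = 1.0), and Hoxb5, a homeobox factor, for ApcKO minus WT at -0.21 (SE 0.081, adjusted p = 0.97).

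**Figure D5:**
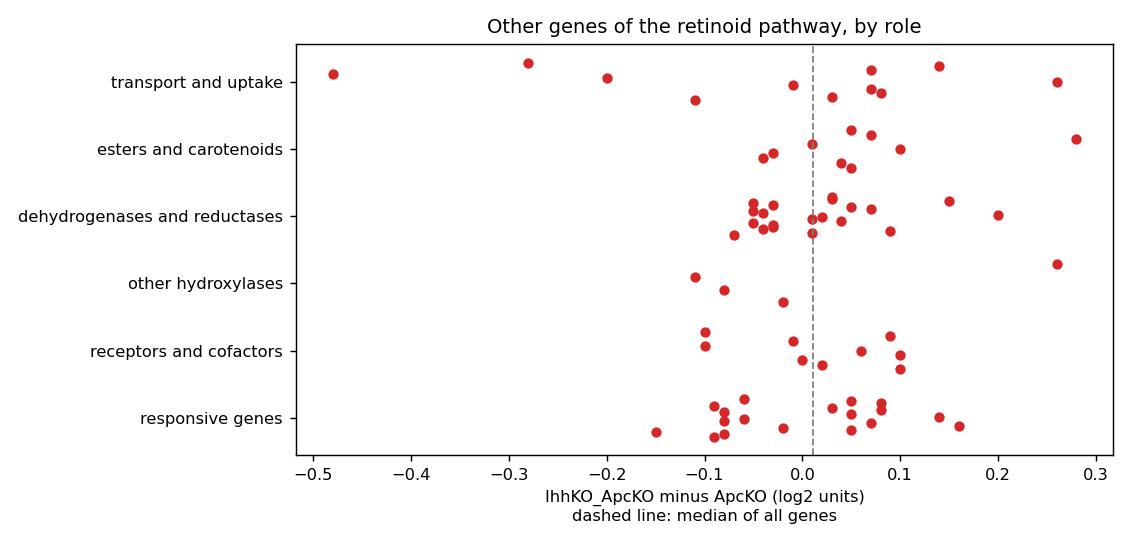
Differences of means for IhhKO_ApcKO minus ApcKO in log2 units for the 71 other measured retinoid genes, 1 point per gene, in 6 rows by role; the dashed line is the median of all genes, 0.011. Most points lie close to that line, and 0 of the genes passed the test.

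The genes whose pattern was most like that of Rbp4 were sought by the correlation over 24 arrays after subtraction of the group means, among 15412 genes above the median level. Adam23, a cell adhesion protein, and Procr, the endothelial protein C receptor, were highest with 0.76 each, followed by Bpgm, an enzyme of red cell glycolysis, at 0.74, Gm4335 at 0.70 and Gm3534 at 0.69. Without B9 these correlations were 0.67, 0.55, 0.55, 0.60 and 0.59. The IhhKO_ApcKO minus ApcKO difference was -0.84 for Adam23 and -0.40 for Procr, and -0.08, -0.01 and 0.00 for the other 3. The nearest genes to the other members were Gas2l2 for Stra6 at 0.84, Il1r2 for Crabp1 at 0.80, Srpx2 for Aldh1a1 at 0.86, Wdr45b for Aldh1a2 at 0.79, Grina for Aldh1a3 at 0.82, Gm25569 for Cyp26b1 at 0.71 and Gas2l1 for Rarb at 0.76. Each of these genes was picked for its high r among all candidates, and no r was tested. All points of a correlation share the array and its normalization.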

How the data were processed

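RNA from 24 samples was hybridised to GeneChip Mouse Transcriptome Array 1.0 arrays. The authors' deposited table holds RMA log2 values, per the submitters' processing notes. Its software, annotation and build versions: not given in the sources used here. RMA equalises array distributions, so differences are relative to the other genes. The table held 72688 probe sets, and 0 columns lacked a sample. Setting aside 6732 controls, 31388 transcript clusters had 1 gene, by a single symbol or a single Entrez identifier, and the brightest per gene gave 30827 genes. No 2 arrays were identical, and array medians lay between 4.96 and 5.14. The median of 23 antigenomic probe sets lay between 2.68 and 3.15 and the 95th percentile of 5222 negative controls between 8.06 and 8.46.

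Groups were compared with limma 3.58.1 in R 4.3.3 (lmFit, eBayes) with all 24 arrays in 1 model, tested on simulated data first. The threshold was 0.05 on p adjusted over all genes by Benjamini-Hochberg. The members and gene lists were chosen with earlier results of these data known. Of the wider list, the gene with the smallest p of each role in each comparison was named. Alternatives covered the probe set rule, a filter on dim genes, centring, quantile normalization, variance moderation, array weights, the groups fitted, the code letter, the code digit and each array left out. Promoter windows came from RefSeq, GRCm38.p6.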

Additional observations from a re-analysis of the deposited data

Results flagged for a closer look

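In 24 sets of values, 8 genes in 3 groups, 3 held an array far from the rest of its group by Dixon's test at the 95% level, a rate at which chance alone marks about 1 set in 20. Stra6 was 5.49 on the ApcKO array B1, and the next value was 5.68. Cyp26b1 was 6.35 on the ApcKO array B5, and the next value was 6.06. Aldh1a3 was 8.53 on the IhhKO_ApcKO array C3, and the next value was 7.97. C3 also had the lowest epithelial and the lowest fibroblast marker mean of its group, 5.47 and 10.20, and the part of these in its Aldh1a3 value was not tested. A3 and B3, which share its code digit, had the lowest epithelial means of their groups as well, 5.95 and 6.37.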

How the results depend on the processing

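The count of tested members that passed was 0 in each of the 3 comparisons under all 33 alternatives, of which 1, the code digit as a block, was added after seeing the data. Not all 33 could move a member. Each has 1 probe set, so the probe set rule left its values the same. Leaving out an array outside a comparison left its difference the same, and the filter on dim genes removed Rarb. Blocking on the code letter, where only B9 and A9 carry the comparison, differences turned for IhhKO_ApcKO minus ApcKO to 0.07 for Rbp4, 0.01 for Stra6, 0.06 for Aldh1a1, 0.21 for Aldh1a2, -0.05 for Ces1d, -0.23 for Dhrs3 and -0.09 for Rara. For IhhKO_ApcKO minus WT they turned to 0.35 for Rbp4, 0.45 for Crabp1, -0.48 for Ces1d, 0.08 for Dhrs7 and 0.13 for Rarres2, and for ApcKO minus WT to 0.50 for Crabp1 and 0.07 for Cyp26a1. With array weights Aldh1a1 turned to 0.01 for ApcKO minus WT and Crabp1 to 0.03 for IhhKO_ApcKO minus ApcKO. Rarb kept its sign with the letter block but moved to -0.38, -0.40 and -0.78. The cause was not tested. Leaving out single arrays moved Rbp4 between -0.76 and -0.60 for IhhKO_ApcKO minus ApcKO and between -0.61 and -0.45 for IhhKO_ApcKO minus WT. Signs turned in such ranges for ApcKO minus WT in Crabp1 (-0.23 to 0.04), Cyp26b1 (-0.08 to 0.00) and Aldh1a1 (-0.11 to 0.02). For IhhKO_ApcKO minus ApcKO they turned in Crabp1 (-0.15 to 0.02), Rarb (-0.05 to 0.04), Stra6 (-0.04 to 0.01) and Cyp26b1 (-0.04 to 0.04). Over all genes, 0 passed for ApcKO minus WT, 14 for IhhKO_ApcKO against ApcKO and 25 for IhhKO_ApcKO against WT. These counts became 113, 53 and 84 with the code letter. They were 65 and 45 for the last 2 with array weights and 8 and 16 with median centring. The second was 23 when genes below the median level were left out, and the third was 7 with only the 2 groups compared. Single arrays left out gave 8 to 41 and 12 to 67, the highest without B9 in both. Arrays of different groups share the digit of their code, and the labels do not say that it pairs them. Of 20 same-digit pairs, 12 had a correlation of deviations from the group means above 0.1 (range -0.06 to 0.33, median 0.14). Of 171 other pairs, 41 did (range -0.34 to 0.33, median -0.02). Same-digit arrays were thus more alike by this measure, and 5 of 24 arrays correlated best with their own digit. Epithelial marker means also went partly with the digit. They were lowest of each group on A3, B3 and C3, at 5.95, 6.37 and 5.47, and high on A9 and C9, at 8.58 and 8.65. A8 and B8 were less alike, at 6.85 and 8.60. The part of epithelial RNA in the likeness of same-digit arrays was not tested. As the labels state no pairing, the main fit did not take the digit as one. With it as a replicate block, 0, 16 and 14 genes passed, Rbp4 was at -0.66 and -0.59 in the comparisons with Ihh loss, and Aldh1a1 at -0.34 (adjusted p = 0.67) and -0.42 (adjusted p = 0.37). Stra6, Cyp26b1 and Rarb lie near background, which limits what their probe sets can show. Crabp1, Aldh1a1, Aldh1a2 and Aldh1a3 lay above the brightest antigenomic probe set on all 24 arrays. They exceeded the 95th percentile of the negative controls on at most 2.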

Other observations

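Of the transport genes outside the naming rule, Cd36, a scavenger receptor that takes up fatty acids and carotenoids, was chosen after its values were seen. It was at 5.67 in WT, 5.42 in ApcKO and 4.93 in IhhKO_ApcKO, with SDs of 0.58, 0.27 and 0.51. Its difference of -0.73 (SE 0.216, limma adjusted p = 0.25) for IhhKO_ApcKO minus WT did not pass. Cd36 was dim, and the negative control medians of the arrays lay between 4.47 and 4.76. Scarb1, the lipoprotein receptor that also takes up carotenoids, was at 6.90, 6.88 and 6.68 in the same order. Its difference for IhhKO_ApcKO minus WT was -0.22 (SE 0.079, limma adjusted p = 0.45).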
